A study of Danio rerio with 15 samples.

Results

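Collagen transcripts were followed in zebrafish larvae, sequenced whole, from parents given an arsenic-laden diet. Every gene whose Ensembl name begins with col, a digit, an a and another digit, ignoring case, was taken as a collagen. This gave 57 of the 32520 genes in the count table, belonging to 22 collagen types. They were divided into 15 fibrillar genes (types I, II, V, XI, XXIV and XXVII), 6 basement membrane genes (type IV) and 36 others. After the filter on low counts 55 were tested. COL6A3, with 0 to 25 counts per library, and col8a1a, with 2 counts in all, were not. The symbols COL2A1, COL10A1, COL12A1, col19a1 and col7a1l each belong to 2 identifiers, so identifiers are given for them.

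Control, Low and High held 5 libraries each, all from wild-type larvae at 5 days post fertilization. The parents of each group were fed blackworms (Lumbriculus variegatus) at 3.5% of body weight over 60 days. Those worms had spent 14 days in sodium arsenite at 0, 2.5 or 5.0 mg/L and then held arsenic, by dry weight, at under 0.05 µg/g in the Control diet. The High diet held 72.47 µg/g, and the Low diet 32.4 µg/g in the labels but 33.42 µg/g in the protocol. The larvae of all groups were raised in arsenic-free medium. Parents bred in trios, and the labels do not say that the libraries of a group came from separate clutches, so the p-values reflect the spread among these libraries alone, which may be technical. The comparisons ask whether the parents' diet goes with a difference in the transcripts of offspring raised in that medium.

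Collagens are trimers of chains wound into a triple helix, and form much of the matrix between cells. Fibrillar types make the rope-like fibrils of skin, bone, tendon and cartilage, type IV makes the sheet-like network of basement membranes, and the remaining types coat fibrils, anchor membranes or span the cell surface. In the zebrafish larva, fin, skin, notochord sheath and jaw cartilage are all rich in collagen. Prolyl and lysyl hydroxylases modify the chains in the endoplasmic reticulum, proteinases trim them outside the cell, and lysyl oxidases cross-link them.

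No collagen passed an adjusted p of 0.05 in any of the 3 comparisons with edgeR's quasi-likelihood test over 22012 genes. In Low against Control, 0 of 55 collagens passed and so did 0% of all genes. In High against Control, 0 collagens passed against 0.522% of all genes, and in High against Low 0 against 1.71%. A test for any difference among the 3 groups also passed 0 collagens, against 0.836% of all genes. At an unadjusted p under 0.05, Low against Control gave 20 collagens lower and 0 higher, against backgrounds of 4.94% and 4.59% of genes. High against Control gave 2 lower (background 8.63%) and 0 higher (7.18%). High against Low gave 10 higher (9.38%) and 2 lower (12.5%). With DESeq2, 0 collagens passed in Low against Control (0.295% of genes) and 0 in High against Control (4.29%). In High against Low 1 passed, COL4A2, as higher (3.29% of genes passed as higher). With limma voom and sample weights, 23 collagens passed as lower in Low than in Control (3.56% of genes passed as lower), 0 passed in High against Control (1.25%), and 14 passed as higher in High than in Low (10.1% of genes passed as higher). In the test for any difference, 2 passed with DESeq2 (7.64%) and 22 with voom (18.2%). The number of calls thus differed with the test used.

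In Low against Control, 53 of 55 log2 fold changes were below 0, against 49.6% of all genes, with a median of -0.49 against 0.002 over all genes. Leaving out each library in turn gave medians from -0.54 to -0.42. In High against Control, 44 of 55 were below 0 (52.1% of all genes), with a median of -0.20, which became -0.10 without High 5 and -0.27 without High 3. Of the 55 estimates in this comparison, 26 had the other sign in the fit without Low 5, High 4 and High 5. In High against Low, 11 of 55 were below 0 (51.7% of all genes), with a median of 0.27, which became 0.17 without High 3 and 0.34 without Low 5. Collagens share tissues and the 3 comparisons share libraries, so these are counts and not independent pieces of evidence. No test of the list was made.

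**Figure D1:**
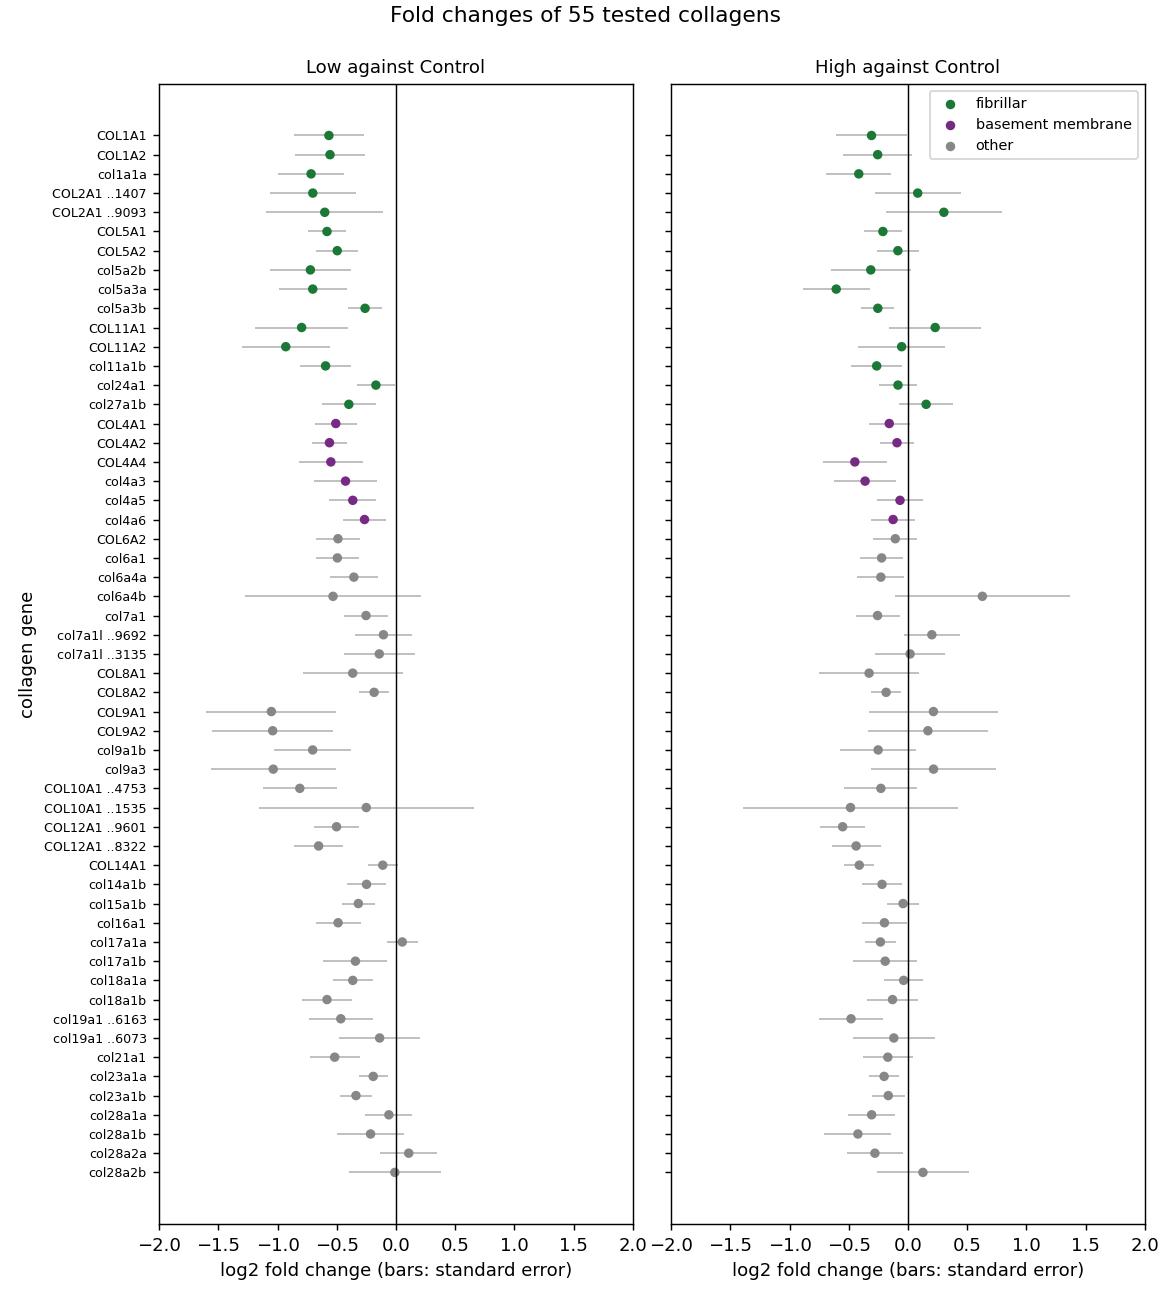
Log2 fold change of each tested collagen (points) with its standard error (bars) in Low against Control and High against Control, 5 libraries a group, coloured by class. On the left 53 of 55 points lie below 0, and on the right 44 of 55; no collagen passed an adjusted p of 0.05 in either.

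Collagen transcripts made up 0.997% to 2.00% of counts in Control libraries, 0.985% to 1.24% in Low and 0.941% to 2.12% in High. In CPM (counts made relative to each library's size after TMM scaling), the 57 genes summed to 16437 ± 3515 for Control, 10917 ± 1148 for Low and 14337 ± 4749 for High (mean ± SD, n = 5 each). Single libraries overlapped between all groups, with Control 2 at 10789 CPM inside the Low range of 9743 to 12805 CPM. Within groups the collagens were also more variable than other genes in High. The median coefficient of variation came to 18.7% for Control, 21.1% for Low and 32.9% for High, against 18.1%, 18.5% and 19.1% over all tested genes.

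Among the fibrillar genes, all 15 estimates were below 0 in Low against Control, with a median log2 fold change of -0.60, and 6 had an unadjusted p under 0.05. The 3 type I genes encode the main collagen of bone, skin and tendon. COL1A1 stood at 4866, 2639, 3238, 3730 and 4349 CPM in Control 1 to 5. It stood at 2610, 2545, 2517, 2812 and 2223 CPM in Low 1 to 5, and at 2486, 3418, 5945, 1824 and 1527 CPM in High 1 to 5. Low 1, 2, 3 and 5 lay below every Control library, while High held both the highest and the lowest values of all. The log2 fold change of COL1A1 was -0.57 ± 0.30 (SE) in Low against Control (adjusted p = 0.566, edgeR) and -0.31 ± 0.30 in High against Control (adjusted p = 0.671). COL1A2, whose chain joins COL1A1 in the same trimer, gave -0.56 ± 0.29 and -0.26 ± 0.29. The other type I gene, col1a1a, gave -0.72 ± 0.28 (adjusted p = 0.457, edgeR) and -0.42 ± 0.28.

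Type V collagen regulates the diameter of type I fibrils, and its genes were the fibrillar members with the least overlap between Control and Low. COL5A2 stood at 644, 506, 562, 653 and 655 CPM in Control 1 to 5 and at 421, 437, 393, 389 and 500 CPM in Low 1 to 5. Its High values were 565, 711, 774, 412 and 383 CPM. Every Low library lay below every Control library, whereas High spanned both. The log2 fold change in Low against Control was -0.50 ± 0.18 (adjusted p = 0.434, edgeR), a 1.41-fold lower level. COL5A1 averaged 463 ± 56.5 CPM for Control, 309 ± 62.4 for Low and 400 ± 84.4 for High (SD, n = 5), with a log2 fold change of -0.58 ± 0.16 in Low against Control (adjusted p = 0.434, edgeR). The gene col5a3a, at 12.9 to 17.6 CPM in Control and 7.37 to 12.5 in Low, also had no overlap between these groups. It was lower in High as well. Its log2 fold change in High against Control ran from -0.81 to -0.41 with each library left out. No fibrillar gene had an adjusted p below 0.317 in that comparison (edgeR, all libraries). Across all 55 collagens 4 genes were lower in Low without overlap, against 0.813% of all genes: COL5A2, col5a3a, COL12A1 (ENSDARG00000019601) and col21a1.

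Types II and XI form the fibrils of cartilage, and type IX decorates those fibrils. These 9 genes are grouped here by that textbook role after their values had been seen, so they are described without a test. Their median log2 fold change was -0.80 in Low against Control, 0.17 in High against Control and 0.90 in High against Low. COL2A1 (ENSDARG00000011407) stood at 542, 313, 693, 845 and 817 CPM in Control 1 to 5. It stood at 333, 380, 260, 227 and 772 CPM in Low 1 to 5 and at 458, 631, 466, 1173 and 669 CPM in High 1 to 5. Low 5 thus lay among the Control values while Low 1 to 4 lay near or below the lowest Control. COL11A2 followed the same order, with 158 to 217 CPM in Low 1 to 4, 507 CPM in Low 5 and 204 to 649 CPM in Control, and a log2 fold change of -0.93 ± 0.37 (adjusted p = 0.474, edgeR). The minor fibrillar genes col24a1 and col27a1b stayed under 10 CPM in every library and gave -0.17 ± 0.16 and -0.40 ± 0.23 in Low against Control.

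**Figure D2:**
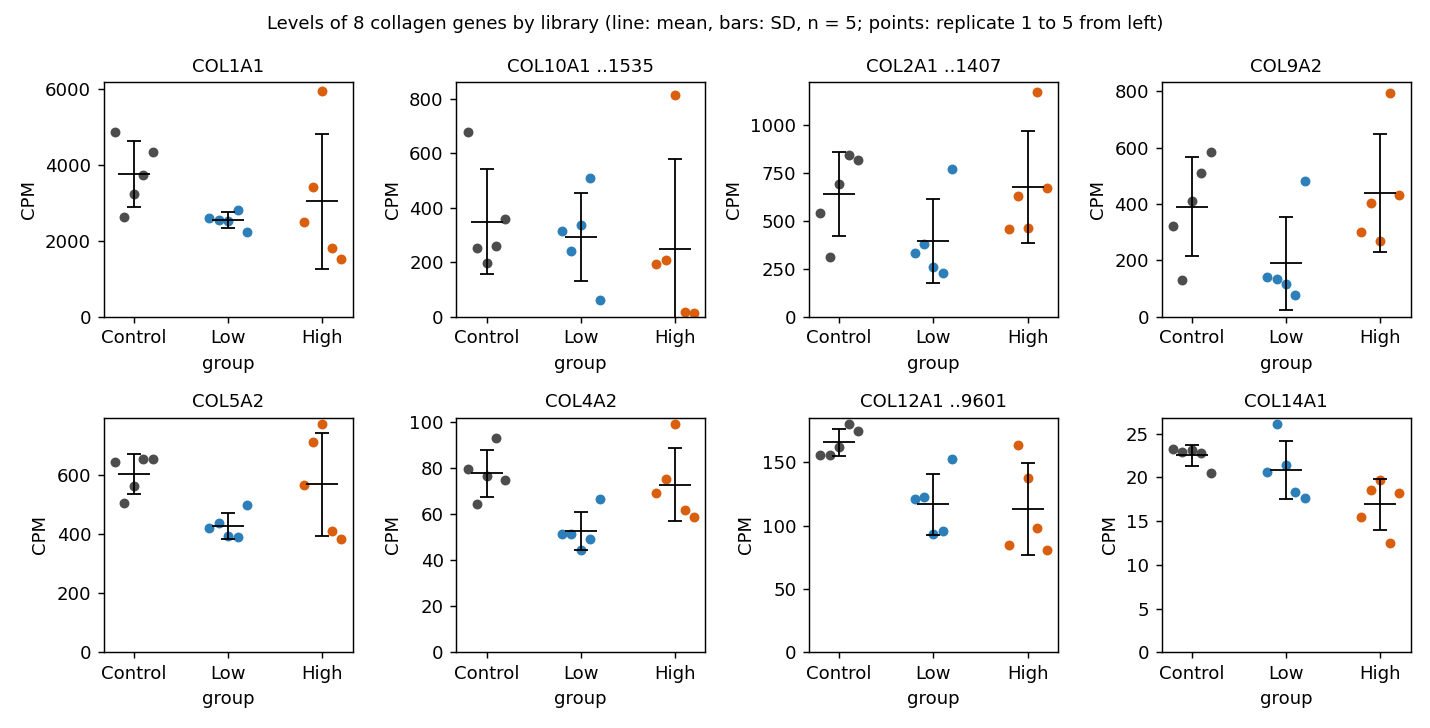
CPM of 8 collagen genes in each library (points, replicates 1 to 5 from left to right) with the group mean (line) and SD (bars, n = 5); symbols shared by a pair of genes carry the end of their identifier, and the lower SD bar of COL10A1 in High is cut at 0. COL5A2 and COL12A1 do not overlap between Control and Low, COL14A1 does not overlap between Control and High, and Low 5 stands above the other Low libraries for COL9A2.

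The 6 type IV genes had estimates below 0 in Low against Control (median log2 fold change -0.47) and in High against Control (median -0.14). In High against Low all 6 were above 0, with a median of 0.22. COL4A1 and COL4A2 encode the chains of the network found under most epithelia and around vessels. COL4A2 had the smallest p of any collagen in Low against Control, with an unadjusted edgeR p of 0.0015 over the whole table. It stood at 79.5, 64.4, 76.4, 92.9 and 74.8 CPM in Control 1 to 5 and at 51.4, 51.3, 44.5, 49.2 and 66.3 CPM in Low 1 to 5. Its High values were 69.2, 75.0, 99.0, 61.8 and 58.7 CPM. Low 5 alone reached into the Control range. The log2 fold change was -0.56 ± 0.15 in Low against Control (adjusted p = 0.434, edgeR), -0.09 ± 0.14 in High against Control (adjusted p = 0.815) and 0.47 ± 0.15 in High against Low (adjusted p = 0.0922). COL4A1 had the same order of group means, with 73.2 ± 8.49 CPM for Control, 51.5 ± 12.2 for Low and 65.6 ± 15.7 for High (SD, n = 5).

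The remaining 4 type IV genes also had estimates below 0 in both comparisons with Control. For col4a5, 1 of the chains of the network known from kidney and eye in mammals, Control held 151 to 232 CPM, Low 113 to 227 and High 156 to 256. Its log2 fold change in Low against Control was -0.37 ± 0.20 (adjusted p = 0.578, edgeR). For col4a6 the value was -0.27 ± 0.18. COL4A4 gave -0.55 ± 0.27 in Low and -0.45 ± 0.27 in High against Control (adjusted p = 0.542 and 0.446, edgeR), and col4a3 gave -0.43 ± 0.26 and -0.36 ± 0.26. COL4A4 and col4a3 were low in the same 2 High libraries, with COL4A4 at 8.73 CPM in High 4 and 10.5 in High 2 against 25.8 CPM in High 3. Counting the basement membrane zone more widely, with types VII, XV, XVII and XVIII, gave 13 of 14 estimates below 0 in Low against Control and a median of -0.35.

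The remaining collagens had a median log2 fold change of -0.35 in Low against Control, with 32 of 34 tested genes below 0, and of -0.20 in High against Control. Type IX had the lowest median of any type, -1.04. COL9A2 stood at 321, 130, 411, 510 and 584 CPM in Control 1 to 5, at 140, 135, 115, 78.2 and 481 CPM in Low 1 to 5, and at 301, 404, 268, 793 and 431 CPM in High 1 to 5. Control 2 lay inside the Low 1 to 4 range and Low 5 inside the Control range. Its log2 fold change was -1.04 ± 0.51 in Low against Control (adjusted p = 0.543, edgeR) and 1.21 ± 0.51 in High against Low (adjusted p = 0.192). Without Low 5 these became -1.74 (adjusted p = 0.0479, edgeR) and 1.91 (adjusted p = 0.0126). Low 5 held the highest Low value of this gene, so leaving it out had to lower the Low mean. In that fit 1.42% of all genes passed as lower in Low against Control and 8.82% as higher in High against Low. With all libraries, COL9A1 gave -1.05 ± 0.55 and 1.27 ± 0.55 in these 2 comparisons. There col9a3 gave -1.04 ± 0.53 and 1.25 ± 0.53, and col9a1b -0.70 ± 0.32 and 0.45 ± 0.32.

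Types XII and XIV sit on the surface of fibrils. The 2 COL12A1 genes had lower means than Control in both arsenic groups, with no adjusted p under 0.05. COL12A1 (ENSDARG00000019601) stood at 156, 156, 162, 180 and 175 CPM in Control 1 to 5, at 121, 122, 93.7, 95.7 and 153 CPM in Low 1 to 5, and at 84.5, 164, 138, 98.6 and 80.8 CPM in High 1 to 5. No Low library reached the lowest Control, and 4 of 5 High libraries lay below it. The log2 fold changes were -0.50 ± 0.19 in Low (adjusted p = 0.448, edgeR) and -0.55 ± 0.19 in High against Control (adjusted p = 0.163). COL12A1 (ENSDARG00000078322) gave -0.65 ± 0.21 in Low (adjusted p = 0.434, edgeR) and -0.44 ± 0.21 in High (adjusted p = 0.319).

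COL14A1 had the smallest p of any collagen in High against Control. It stood at 23.3, 22.9, 23.2, 22.8 and 20.5 CPM in Control 1 to 5 and at 15.5, 18.6, 19.7, 12.5 and 18.2 CPM in High 1 to 5. Low libraries held 20.6, 26.1, 21.4, 18.4 and 17.6 CPM. Every High library lay below every Control library, and Low overlapped both. This was the 1 collagen of 55 lower in High than in Control without overlap, against 2.39% of all genes. In High against Low 0 collagens were lower (background 2.43%) and 0 higher (1.88%) without overlap. The log2 fold change was -0.41 ± 0.13 (adjusted p = 0.133, edgeR). Its partner col14a1b gave -0.22 ± 0.17 in High against Control.

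Type VI forms beaded filaments around muscle and other cells. Its genes col6a1 and COL6A2, whose chains join 1 trimer, gave -0.50 ± 0.18 and -0.49 ± 0.19 in Low against Control (adjusted p = 0.442 and 0.457, edgeR). In both genes 4 of 5 Low libraries lay below every Control. The gene col6a4b varied widely between libraries, at 1.76 to 3.15 CPM in Low 1 to 4 and 19.4 CPM in Low 5, with at least 19.7 CPM in High 4 and 5. Over the 4 tested type VI genes, col6a4b included, estimates ran from -0.53 to -0.36 in Low against Control. In High against Control they ran from -0.23 to 0.63.

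Type X marks hypertrophic cartilage in mammals, and in zebrafish is also made by bone-forming cells. COL10A1 (ENSDARG00000054753) averaged 1711 ± 516 CPM for Control, 974 ± 94.5 for Low and 1459 ± 743 for High (SD, n = 5), a log2 fold change of -0.81 ± 0.31 in Low against Control (adjusted p = 0.457, edgeR). COL10A1 (ENSDARG00000101535) stood at 194, 209, 815, 16.8 and 12.5 CPM in High 1 to 5 and at 62.0 CPM in Low 5, while the other Low libraries held 243 to 510 and Control 197 to 679 CPM. COL8A1, a short-chain relative, was also low in High 4 and 5, at 3.62 and 5.98 CPM against a Control mean of 18.3 ± 3.93 (SD, n = 5).

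Type XVII spans the membrane of basal skin cells, and col17a1a was 1 of the 2 collagens above 0 in Low against Control, at 0.05 ± 0.13. In High against Control it gave -0.23 ± 0.13 (adjusted p = 0.42, edgeR). Type VII, which anchors skin to the tissue under it, had a median of -0.14 in Low against Control over 3 genes. The multiplexins, types XV and XVIII, can release endostatin-like fragments. Their genes col18a1b, col18a1a and col15a1b gave -0.58 ± 0.21, -0.37 ± 0.17 and -0.32 ± 0.14 in Low against Control, with adjusted p of 0.442, 0.51 and 0.488 (edgeR), and each had an unadjusted p under 0.05. The 4 type XXVIII genes had a median of -0.03 in Low and -0.29 in High against Control.

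**Figure D3:**
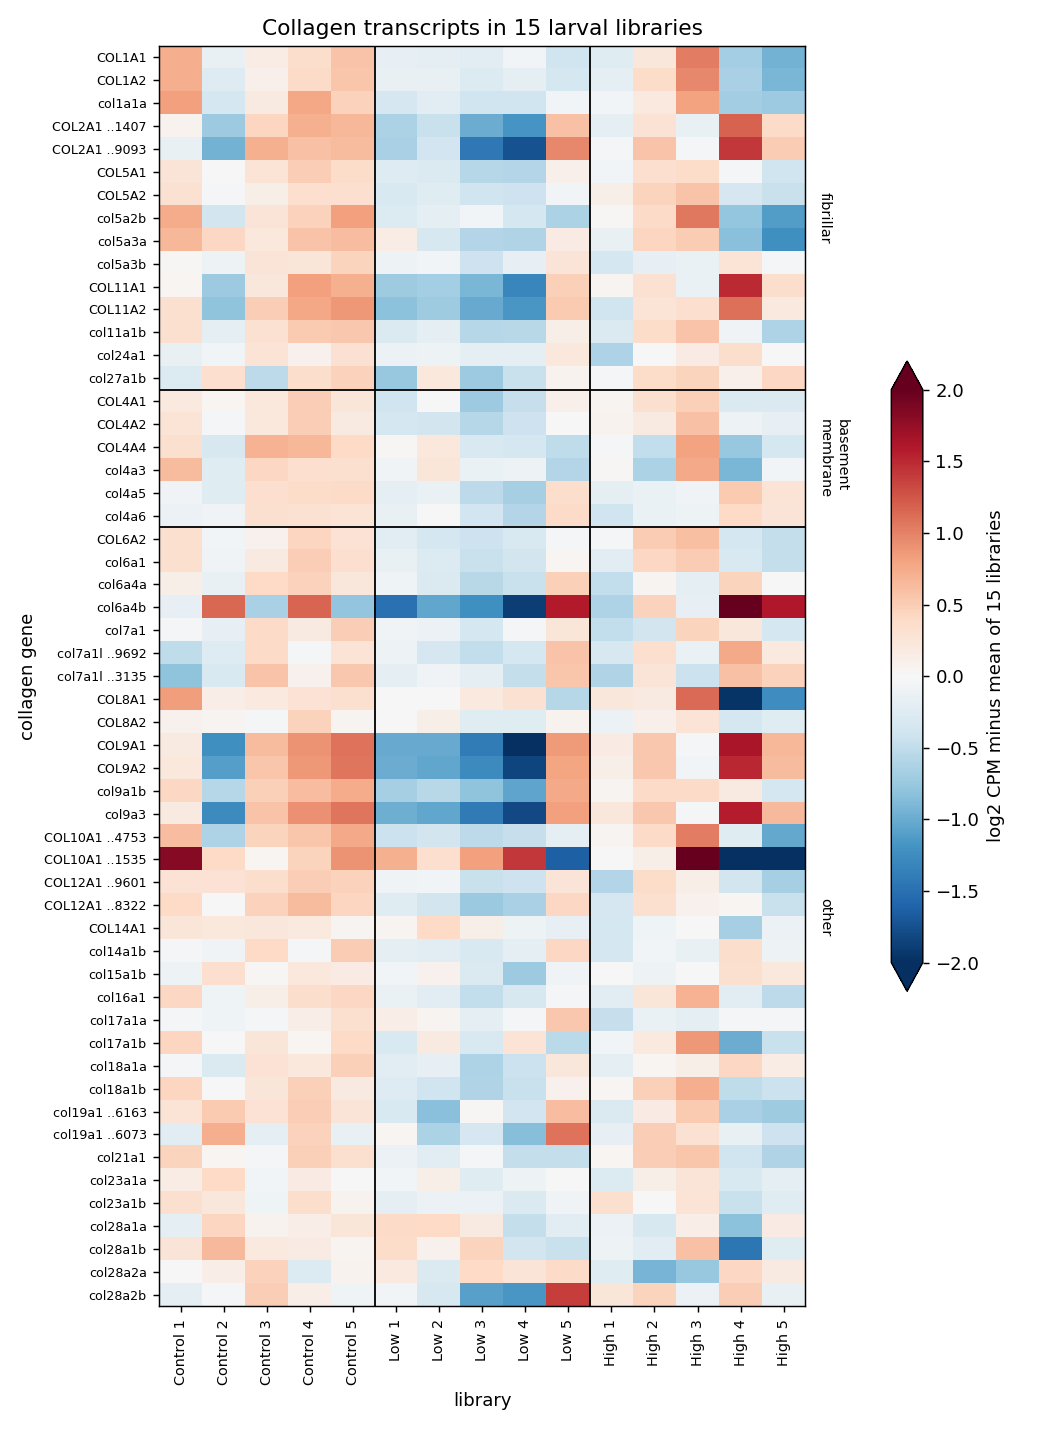
Log2 CPM of the 55 tested collagens (rows, by class) in each library (columns) minus the mean of the gene over all 15 libraries; red is higher, blue is lower, and colours are capped at 2. Low 1 to 4 are mostly blue, Low 5 and High 4 are red for types II, IX and XI, and High 3 is red for type I.

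Single libraries differed widely within groups. Type I genes summed to 9515, 4948, 6246, 7485 and 8404 CPM in Control 1 to 5, to 5088, 5052, 4811, 5251 and 4452 CPM in Low, and to 4975, 6981, 11341, 3596 and 3029 CPM in High. Types II, IX and XI summed to 2356, 1196, 2899, 3521 and 3710 CPM in Control, to 1254, 1339, 1004, 850 and 3186 CPM in Low, and to 1968, 2742, 2227, 4867 and 2647 CPM in High. The ratio of type I to the cartilage types ran from 0.739 in High 4 to 6.18 in Low 4. Low 5 held the highest Low value for 38 of 55 collagens and for all 9 cartilage genes. High 3 was the highest High library for 28 collagens, the 3 type I genes among them, and High 4 for 21. Control 2 was the lowest Control library for 34, including the 9 cartilage and 3 type I genes.

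**Figure D4:**
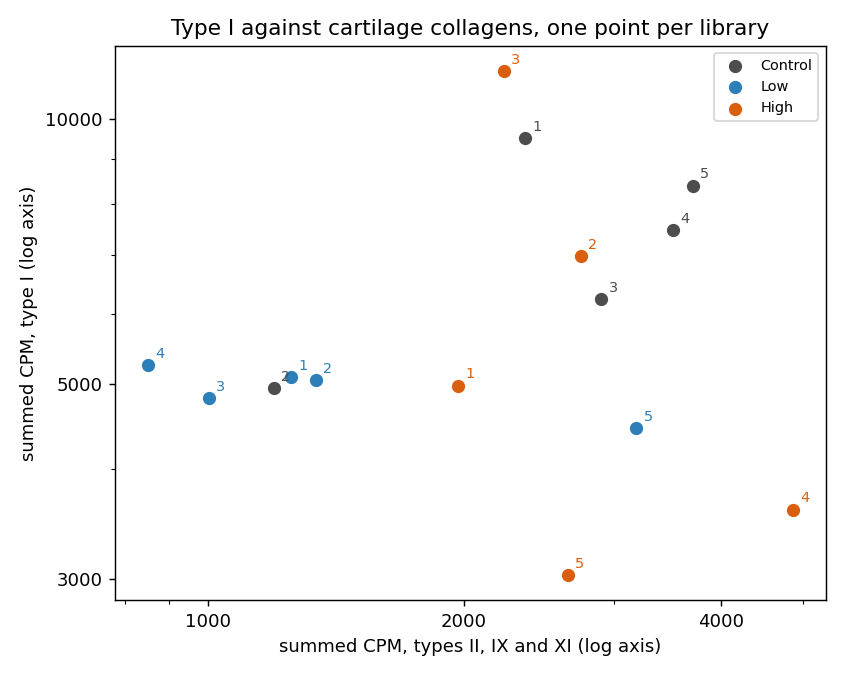
Summed CPM of the 3 type I genes against that of the 9 type II, IX and XI genes, 1 point per library with its replicate number, both axes logarithmic. Low 1 to 4 share low cartilage sums of 850 to 1339 CPM with Control 2 (1196), and High 4 and 5 have the lowest type I sums, 3596 and 3029 CPM.

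Transcripts of other organs also differed between these libraries. The mean log2 CPM of 67 tested markers of exocrine pancreas, intestine and liver was 6.61 in Control 2, 6.10 in Low 5, and 6.61 and 6.58 in High 4 and 5. It ran from -1.05 to 1.72 in Low 1 to 4, and was -0.41 in Control 5 and -0.55 in High 3. Between these lay Control 1, 3 and 4 at 2.96, 0.66 and 4.25, and High 1 and 2 at 3.92 and 5.67. A mean above 6 defined the libraries called richest in digestive transcripts below. Muscle markers averaged 7.22 to 7.73 log2 CPM in Low 1 to 4, 9.46 in Low 5 and 8.05 to 9.01 in Control. Cartilage matrix genes, none of them a collagen, averaged 3.53 to 4.05 log2 CPM in Low 1 to 4 and 5.03 in Low 5. Notochord markers, which share epyc and MATN4 with that list, averaged 3.63 to 3.80 in Low 1 to 4 and 4.67 in Low 5. High 4 was the highest High library for both lists. The lowest Control library was Control 2 for cartilage matrix but Control 3 for notochord. Bone markers were lowest in High 4 and 5, at 3.05 and 3.18 against 3.67 to 4.77 in the other 13 libraries. In whole larvae, fewer cells of a type and less RNA per cell cannot be told apart, and the part of these organ transcripts in the collagen values was not tested beyond the fits that follow.

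Leaving out libraries changed the number of collagens that passed with edgeR. Without Low 5, 6 collagens passed as lower in Low than in Control, among them COL4A2, COL5A1 and COL9A2, where 1.42% of all genes passed as lower, and 12 passed as higher in High than in Low (8.82% of genes as higher). The test for any difference then passed 9 (11.6%). Both of the wider exclusions were chosen after the data were seen, the second after the result of the first was known. Low 5 was the highest Low library for 38 of 55 collagens, and Control 2 the lowest Control library for 34. Leaving them out moves Low and Control apart for those genes, so the calls this adds are not separate evidence. Leaving out High 4 and High 5 besides Low 5 removes no further Low or Control library. The median log2 fold change in Low against Control was -0.54 with and without that step. Why more collagens passed after it was not tested. Without Low 5, High 4 and High 5, 14 collagens passed as lower in Low than in Control (1.88% of genes as lower), 8 as higher in High than in Low (4.06% as higher) and 11 in the test for any difference (5.36%). Without these and Control 2, the 4 libraries richest in digestive transcripts, 26 passed as lower in Low (4.28%), 22 as higher in High than in Low (7.72%) and 25 in the test for any difference (10.9%). High against Control gave 0 collagens in each of these fits, against 1.08%, 0.0671% and 0.0989% of genes. With the digestive marker mean as a covariate in all 15 libraries, 0 collagens passed in Low against Control (0% of genes), High against Control (0.395%) and High against Low (0.273%). The estimates in Low against Control kept a median of -0.53 in that fit. At an unadjusted edgeR p under 0.05, 28 collagens were lower, against 20 without the covariate. Over all 22012 genes tested, 1197 were lower at that p with the covariate and 1088 without it. In High against Control 52 of 55 collagens were below 0 with the covariate (median -0.21) and 44 without it. Over all genes 11870 were below 0 there with it and 11463 without it. In High against Low 14 collagens were below 0 with the covariate (median 0.37) and 11 without it, where all genes gave 11525 and 11391. At an unadjusted edgeR p under 0.05, 8 collagens were higher in High than in Low with the covariate and 10 without it. Over all genes 1514 were higher at that p with it and 2065 without it.

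Genes that build, trim and break down collagen passed in 3 cases, all as higher in High than in Low, where 0.672% of all genes passed as higher. P4HA2, a subunit of the prolyl hydroxylase that stabilises the helix, stood at 15.6, 20.4, 14.7, 15.1 and 20.0 CPM in Low 1 to 5 and at 28.6, 33.7, 33.4, 27.4 and 25.6 CPM in High 1 to 5. Its Control values were 21.5, 15.9, 22.1, 19.7 and 25.2 CPM. All High libraries lay above all Low and all Control libraries. P4HA2 rose by 0.80 ± 0.14 on the log2 scale (adjusted p = 0.0168, edgeR) in High against Low, and gave 0.51 ± 0.14 in High against Control (adjusted p = 0.09). BMP1 (ENSDARG00000028071), the proteinase that trims fibrillar procollagen ends, rose by 0.56 ± 0.12 (adjusted p = 0.0293, edgeR), with 53.1 ± 10.1 CPM in Low and 78.1 ± 7.79 in High (SD, n = 5). The other gene of that symbol, BMP1 (ENSDARG00000028053), had estimates below 0. It gave -0.21 ± 0.13 in High against Low (adjusted p = 0.369, edgeR) and -0.23 ± 0.13 in High against Control (adjusted p = 0.421). The collagenase gene mmp13a was higher by 2.18 ± 0.44 in High than in Low (adjusted p = 0.0277, edgeR). It held 0.436 to 1.25 CPM in Low, 1.39 to 7.30 CPM in High and 0.547 to 1.18 CPM in Control. In High against Control it gave 1.88 ± 0.44 (adjusted p = 0.063, edgeR). Leaving out 1 library ended the call of P4HA2 for Low 3, Low 4 or High 2 (adjusted p up to 0.0550). It ended that of BMP1 for Low 1, 3 or 4 or High 2, 4 or 5 (up to 0.0922), and that of mmp13a for Low 1, 2 or 3 or High 1 or 2 (up to 0.0902), all by edgeR.

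The lists around them were counted in the same fit. Of 30 folding and modification genes, 1 passed in High against Low (background 1.71%), all 30 estimates were above 0 and the median was 0.36, against -0.01 over all genes. In Low against Control this list had 26 of 30 estimates below 0 and a median of -0.16. In High against Control 24 of its 30 estimates were above 0, with a median of 0.19, where 44 of 55 collagens were below 0. At an unadjusted edgeR p under 0.05, 7 of the list were higher there (7.18% of all genes) and 0 lower (8.63%). Of 30 processing and cross-linking genes, 27 were below 0 in Low against Control with a median of -0.36, and 0 passed (0% of all genes). LOXL4 and LOXL2, lysyl oxidases that cross-link collagen, had the smallest p of that list, with -0.94 ± 0.24 and -0.76 ± 0.21 (both adjusted p = 0.434, edgeR). Of 16 degradation genes 1 passed in High against Low (1.71% of all genes). Among 12 tested receptors, 24 laminin and basement membrane genes, 18 cartilage matrix genes and 13 bone genes, 0 passed in any comparison. Over all genes 0% passed in Low against Control, 0.522% in High against Control and 1.71% in High against Low. With shares that small, 0 calls in lists this short say little about their members. The medians of these lists in Low against Control were -0.30, -0.28, -0.60 and -0.45. ENTPD5, an enzyme needed for bone mineralisation in zebrafish, averaged 70.3 ± 21.9 CPM for Control, 31.7 ± 8.58 for Low and 67.7 ± 28.7 for High (SD, n = 5), a log2 fold change of -1.15 ± 0.31 in Low against Control (adjusted p = 0.434, edgeR). The bone gene runx2b gave -0.63 ± 0.16 in High against Control (adjusted p = 0.0776, edgeR), where 10 of 13 bone genes were below 0. In the cartilage matrix list SOX9 (ENSDARG00000043923) gave 0.22 ± 0.11 in Low against Control, where 16 of 18 were below 0. It gave -0.41 ± 0.11 in High against Low (adjusted p = 0.0637, edgeR), where 16 of 18 were above 0.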

How the data were processed

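RNA of whole larvae was sequenced as read pairs of 100 bp from samples with an integrity number above 8, per the labels' protocols. The labels state 20 larvae, which may be per sample or in all. Raw counts per Ensembl gene and library were deposited by the authors as a single table. FastQC, MultiQC, Trimmomatic, DESeq2 and the builds GRCz11 and mm10 (mouse) stand in the submitters' processing notes, with the aligner, counter, annotation and handling of strand not given in the sources used here, so near-identical gene copies, overlapping genes and antisense genes are uncertain. No transcript lengths were used, so levels are compared between libraries and not between genes.

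Total counts were 21.2 to 59.9 M (mega counts) per library, and 15 lines naming no gene, trailing the table, were left out. Genes passing filterByExpr were scaled by TMM and tested with edgeR 4.0.16 in R 4.3.3 (robust quasi-likelihood, all 15 libraries, 1 coefficient per group), adjusted by Benjamini-Hochberg over 22012 genes at 0.05. DESeq2 1.42.0 and limma 3.58.1 (voom) were alternatives, with other scaling, filters, fits on the groups compared, a replicate block, a digestive covariate and each library left out. The test was first run on simulated data. The text names some, not all, of the collagens and companion genes with the smallest p per class or list and of the most abundant per subclass. Those needed to describe single libraries were picked after their values were seen. The members and lists were chosen with earlier results of these data known. No library duplicated another of its own group, the lowest chi-square per gene for 2 libraries of 1 group being 17.2. Libraries of different groups were not compared in this way.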

Additional observations from a re-analysis of the deposited data

Results flagged for a closer look

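Among 129 sets of 5 libraries (43 genes or sums in 3 groups), 13 had a library far from the other 4 by Dixon's criterion (critical value 0.71). Chance alone flags about 1 in 20 of independent sets. These sets share libraries, the sums hold flagged genes, and some genes were picked after their values were seen. That rate therefore cannot be set against the 13 or against the flags of 1 library. Of the 13, 8 were Low 5 and 3 were High 4. In Low 5, COL11A2 was at 506.5 CPM against 158.3 to 216.5 in the other Low libraries, and COL11A1 at 156.6 CPM against 45.2 to 69.7. COL9A2 was at 480.6 CPM there, against 78.2 to 140.0, col9a3 at 407.4 against 66.0 to 116.6, and COL9A1 at 350.0 against 48.9 to 95.9. The skin anchoring gene col7a1l (ENSDARG00000069692) was at 33.22 CPM in Low 5 against 16.1 to 20.8. The sum over types II, IX and XI was 3186.0 CPM in Low 5 against 850.3 to 1339.0, and the sum over collagens that are neither fibrillar nor type IV was 4763.1 CPM against 3020.2 to 3483.8.

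In High 4, COL11A1 was at 315.2 CPM against 101.8 to 142.4 in the other High libraries, COL9A1 at 602.3 against 189.9 to 307.5, and the sum over types II, IX and XI at 4867.1 against 1967.8 to 2741.6. In High 3, COL10A1 (ENSDARG00000101535) was at 815.1 CPM against 12.5 to 208.9. In Control 5, COL14A1 was at 20.47 CPM, under the 22.8 to 23.3 CPM of the other Control libraries.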

How the results depend on the processing

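Collagens called in Low against Control were 0 by edgeR, 23 with voom, 14 without Low 5, High 4 and High 5, 26 without these and Control 2, and 0 to 6 with each library left out. In High against Low they were 0, 1 with DESeq2, 14 with voom, 1 at an adjusted p of 0.1, 8 and 22 in the fits without 3 and 4 libraries, and 0 to 12 with each library left out. The any-difference test gave 2 with DESeq2, 22 with voom, 11 and 25 in those 2 fits, and 0 to 9. Over all genes, Low against Control gave 65 with DESeq2, 1431 with voom, 711 and 1581 in those 2 fits, and 0 to 507 with each library left out. High against Control gave 115 by edgeR, 944 with DESeq2, 275 with voom, 51 with only the groups compared, 15 and 22 in the 2 fits, and 19 to 362. High against Low gave 377 by edgeR, 1666, 4656, 118, 1662 and 2945 in the same order, 60 with the digestive covariate, and 39 to 3778. Among the fits leaving out 1 library, the highest counts in Low against Control and High against Low came without Low 5. Of 15 same-numbered pairs of libraries 9 correlated over 0.1, and all 15 ran from -0.54 to 0.54. Differently numbered pairs were not examined, so whether replicate numbers pair the samples was not settled. With the replicate block the 3 comparisons gave 1, 20 and 106 genes and 0 collagens. The median log2 fold change in High against Low became 0.58 over all collagens and 0.41 over the others without 3 and without 4 libraries alike, and every class median kept its sign in each fit run. Over the 25 alternatives, 0 to 3 of 55 collagens had the other sign in Low against Control, 0 to 26 in High against Control and 0 to 9 in High against Low, and 0 of them passed there. Named genes that turned were COL4A1 (0.0634 and 0.0153) and COL4A2 (0.0790 and 0.0175) in High against Control without 3 and 4 libraries, MATN4 there (-0.11 without 4), and COL4A4 in High against Low (-0.0438 with voom, -0.23 without High 3 and up to 0.24 without another single library). The call of BMP1 was lost with only the groups compared, the block or the covariate (adjusted p of 0.0810, 0.0557 and 0.0956), that of mmp13a with the first and last (0.0764 and 0.106). The cause was not tested. COL6A3 and col8a1a had too few counts to be tested.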

Other observations

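By mean log2 CPM over tested members, every companion and marker list, none of which holds a collagen, had its lowest group mean in Low. All lists share the same 15 libraries, so this is not independent evidence. The spread was wide in some, with exocrine pancreas markers at 0.42 ± 3.71 in Low and 2.35 ± 4.70 in Control (SD, n = 5). The order did not hold for the summed CPM of skin markers. Those sums ran from 12128 to 20707 in Control, 12194 to 18844 in Low and 12633 to 16138 in High. Skin markers averaged 7.51, 7.18 and 7.75 log2 CPM in Control, Low and High, and blood markers 5.51, 4.47 and 5.47. Heart markers were among these lists. Their mean log2 CPM over 16 genes came to 3.05 ± 0.58 for Control, 1.72 ± 0.77 for Low and 3.19 ± 0.18 for High (SD, n = 5). In High against Low 2 of them passed as higher (edgeR, 0.672% of all genes passed as higher), and 14 of 16 estimates were above 0 with a median log2 fold change of 1.23. In Low against Control 0 heart markers passed (0% of all genes) and the median was -1.24. Heart was not the only marker list with calls. In High against Low, 2 of 16 skin markers and 1 of 18 tested muscle markers also passed as higher. Low 5, which stood apart from the other Low libraries for cartilage collagens and muscle, was at 2.27 for the heart list, inside the range of 0.56 to 2.37 held by the other 4.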
